A study of Mus musculus with 64 samples.

Results

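The mitochondrial ribosomal protein genes (MRP genes) were followed through the hearts of a mouse model of arrhythmogenic right ventricular cardiomyopathy, an inherited disease of the heart muscle in which the desmosomal protein plakophilin-2 is often lost. They were taken by name, as all rows of the count table whose symbol starts with Mrpl or Mrps and a number, and names marked as pseudogenes were left out. The rule gave 77 of 39152 named genes. Of these, 50 encode proteins of the large subunit of the mitochondrial ribosome and 26 proteins of the small subunit. Mrps36 carries the name but encodes an adaptor of the oxoglutarate dehydrogenase complex, a citric acid cycle enzyme, and it is given apart where it matters.

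The mitochondrial ribosome (mitoribosome) translates the few mRNAs that mitochondrial DNA encodes, all of which specify subunits of the respiratory chain. All of its proteins are encoded in the nucleus and imported, some with a counterpart in bacterial ribosomes and others found only in mitochondria. Cardiomyocytes hold many mitochondria, and the nuclear genes of respiratory chain complexes I to V were therefore measured beside the MRP genes.

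RNA was sequenced separately for each ventricle, right (RV) and left (LV), of 32 mice on the C57BL6 strain, 64 libraries in all, and every animal carried floxed Pkp2 alleles on both chromosomes. In the knockout (cKO) animals and in all vector-treated animals a tamoxifen-inducible Cre driven by the alpha myosin heavy chain promoter deleted Pkp2 in cardiomyocytes only. The 4 cKO animals received the vehicle HBSS and were collected 4 weeks after induction. Of the cKO animals given AAV9:mPkp2, an adeno-associated virus that carries mouse Pkp2, by a single retro-orbital injection, 8 received 3e13 vector genomes per kg (AAV_3E13) and 5 received 1e14 (AAV_1E14), by label 1 week before tamoxifen. The sources differ on this early dose, since parts of the study's text place it 1 week after induction instead. In 6 further animals 1e14 was given 2.5 weeks after tamoxifen (AAV_1E14_2.5wk). The 9 WT animals were littermates without Cre that received HBSS, and WT and all vector-treated hearts were collected 51 weeks after induction. Genotype and time after induction therefore cannot be told apart in any comparison that involves the cKO group.

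The libraries held 7.96 M to 14.6 M counts (M, 1e+06), of which 5.34 M to 10.2 M remained once mitochondrially encoded genes were set aside, and 6665 to 20510 of these fell on MRP genes. Pkp2 itself, in CPM (counts per 1e+06 counts used), averaged 58.9 ± 28.3 in cKO RV and 150 ± 20.5 in WT RV (SD, n = 4 and 9), and it was lower in cKO LV as well, at 66.9 ± 24.0 against 193 ± 18.8 in WT LV. The vector groups, where the vector's own Pkp2 adds to it, averaged 297 to 1928 CPM in RV. Libraries of the AAV_1E14_2.5wk and WT groups were in doubt. The RV library of animal PKP2_m1e14_2.5wk_5814 held the female transcript Xist at 262 CPM together with 296 CPM of Y-linked genes, while its LV library held 3073 and 0 CPM. It was the only 1 of 32 animals whose ventricles differed in which of these was higher. The RV library of animal WT_HBSS_5819 held 1297 TPM (transcripts per 1e+06) of atrial markers, against at most 193 TPM in the other WT RV libraries. The LV library of animal PKP2_m1e14_2.5wk_5810 held 3511 TPM of atrial markers, the most of all libraries. It also had the lowest share of mitochondrially encoded counts, 16.6%. Counts without animals PKP2_m1e14_2.5wk_5814 and WT_HBSS_5819 are given beside the results they touch. Fits without animal PKP2_m1e14_2.5wk_5810 enter the ranges for leaving out each animal, given at the end.

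In WT hearts MRP transcripts were of middling abundance. On the TPM scale, which corrects for length, the median MRP gene stood at 32.3 TPM over the WT libraries, with 5 genes over 100 TPM and 5 under 10 TPM. The highest were Mrpl30 at 242 TPM, Mrps21 at 169 TPM and Mrps36 at 122 TPM, which together made up 17.1% of all MRP TPM. At the low end stood Mrps16 at 5.03 TPM, Mrpl11 at 2.37 TPM and Mrpl42 at 0.442 TPM. Mrpl42 had 52 counts over all 64 libraries and passed the filter on low counts in none of the comparisons, and Mrpl23 passed it in 23 of 27. The row of the pseudogene Mrpl23-ps1 held 8517 counts against 966 on Mrpl23. Reads may have been split between these rows, so the values of Mrpl23 are uncertain. Their sequences were not compared.

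The summed level of the 77 MRP genes was low in both ventricles of cKO hearts. In RV it averaged 1073 ± 239 CPM in cKO, 1897 ± 215 in AAV_3E13, 2303 ± 219 in AAV_1E14, 2073 ± 216 in AAV_1E14_2.5wk and 1719 ± 191 in WT (SD, n = 4, 8, 5, 6 and 9). In LV it averaged 1101 ± 260 CPM in cKO, 1471 ± 142 in AAV_3E13, 2065 ± 242 in AAV_1E14, 1962 ± 222 in AAV_1E14_2.5wk and 2160 ± 102 in WT. The highest cKO library reached 1406 CPM in RV, below the lowest WT library at 1504 CPM, and 1435 CPM in LV, below the lowest WT library at 1988 CPM. WT RV had the lower mean of the 2 WT ventricles, and its highest library just passed the lowest WT LV library, whereas the cKO ventricles overlapped broadly.

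**Figure D1:**
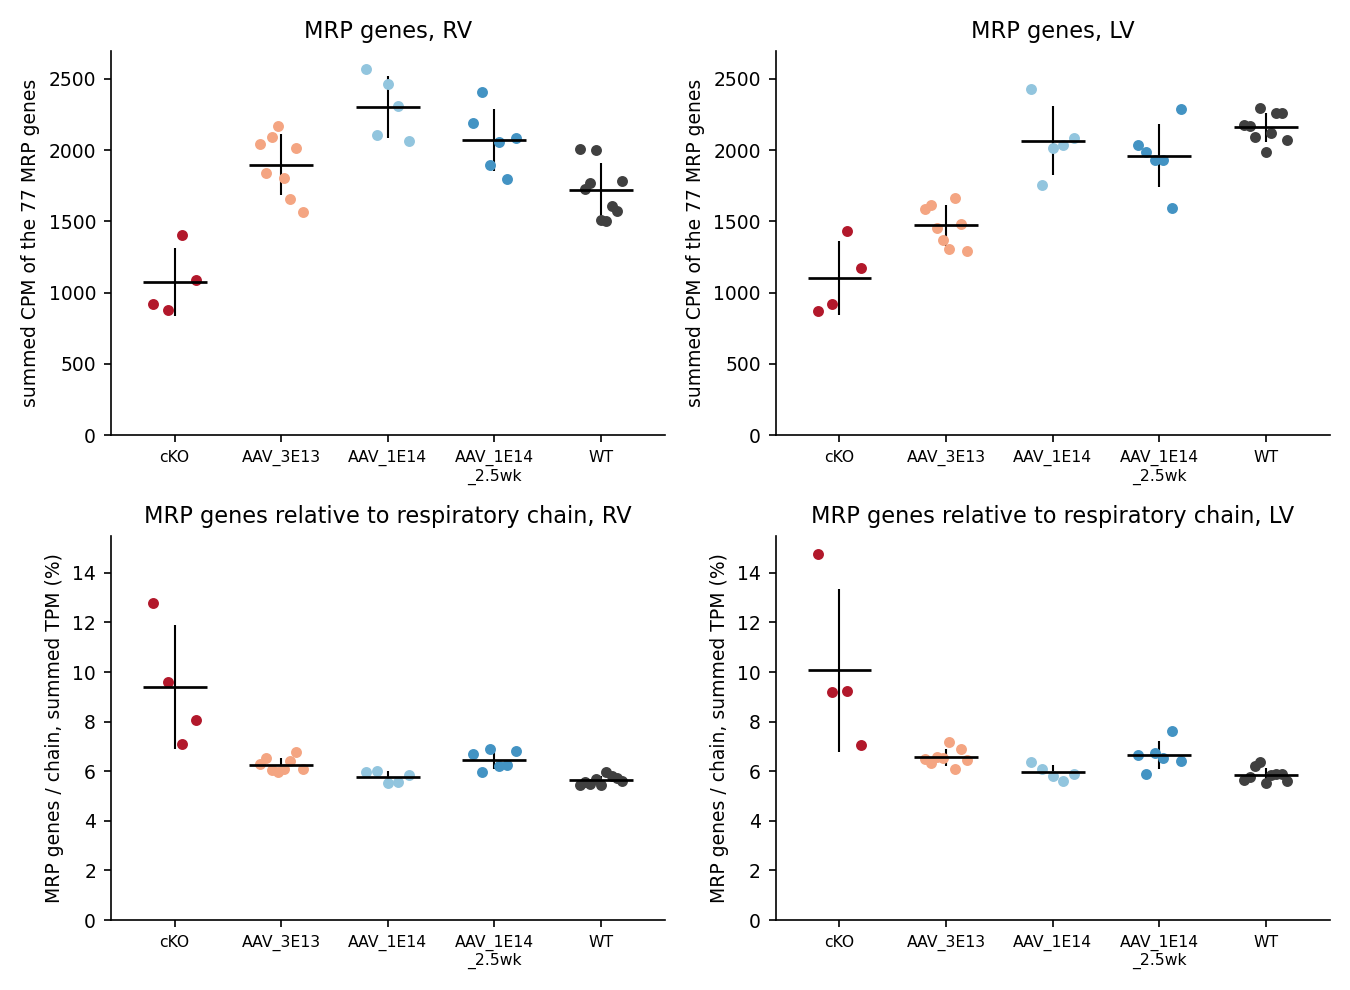
Summed level of the 77 MRP genes in CPM (top) and their summed TPM as a percentage of the summed TPM of the nuclear respiratory chain genes (bottom), by group, in RV (left) and LV (right). Points are libraries, horizontal bars means and vertical bars ± SD, and the cKO libraries, at 882 to 1406 CPM in RV and 870 to 1435 CPM in LV, lie below all WT libraries in summed CPM and above them in the percentage. In RV they lie apart from all other groups in both measures, and in LV they overlap AAV_3E13 in both and AAV_1E14_2.5wk in the percentage.

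Relative to the respiratory chain, the MRP genes had a higher mean in cKO than in any other group. Their summed TPM was 9.39 ± 2.49% of that of the chain in cKO RV, against 5.63 ± 0.18% in WT RV, and 10.1 ± 3.29% in cKO LV, against 5.86 ± 0.27% in WT LV. The lowest cKO library stood at 7.12% in RV and 7.08% in LV, and the highest WT library at 5.96% in RV and 6.35% in LV. Among the vector groups, AAV_1E14_2.5wk had the highest mean, with 6.47 ± 0.38% in RV and 6.64 ± 0.56% in LV. AAV_3E13 was close, with 6.27 ± 0.27% in RV and 6.57 ± 0.34% in LV. The LV mean of AAV_1E14_2.5wk includes animal PKP2_m1e14_2.5wk_5810 at 7.62%, the highest vector-treated library, so the order of these groups in LV is uncertain. Over all 64 libraries the mean log2 CPM of the MRP genes and that of the chain moved together (Pearson r = 0.961 across libraries that share group, depth and cell makeup, given as a description).

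The proximal promoters of the MRP genes were read from the genome as a description of what these genes share in sequence. Windows ran from 250 bases before to 50 bases after the start of the canonical transcript (GRCm39, GENCODE M39), and all 77 genes had one. Both strands were searched for exact matches. CCGGAAG, the core bound by GABPA, an ETS factor also called NRF2 that is known from nuclear genes of mitochondrial proteins, was found in 23 windows (29.9%), against 15% of 80 chain windows and 10.3% of 21751 windows of all protein-coding genes. AAGATGG, the YY1 core, was found in 11.7% of MRP windows, 11.2% of chain windows and 5.74% of all. The palindromic NRF1 consensus was found in 1.3% (Mrpl9), 5% and 1.16%, TCAAGGTCA, the site of estrogen-related receptors, in 0%, 1.25% and 0.474%, and the E-box CACGTG in 6.49%, 8.75% and 7.81%. A match is a run of letters only, and no binding was measured.

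Windows of 3 genes among those with the largest falls described below are shown 5′ to 3′ on the strand of the gene, with CCGGAAG and AAGATGG matches (or their reverse complements) in capitals. They are Mrpl18 (chr17:13135669-13135968, minus strand) and Mrps35 (chr6:146943976-146944275, plus strand), each with 1 match, and Mrpl50 (chr4:49521088-49521387, minus strand), which holds no match to any of the motifs.
Mrpl18: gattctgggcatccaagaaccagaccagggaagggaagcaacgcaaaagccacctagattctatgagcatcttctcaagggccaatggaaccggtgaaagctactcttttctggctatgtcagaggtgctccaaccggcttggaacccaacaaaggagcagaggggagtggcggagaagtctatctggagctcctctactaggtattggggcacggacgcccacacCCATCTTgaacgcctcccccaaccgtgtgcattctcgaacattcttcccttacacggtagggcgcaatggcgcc
Mrps35: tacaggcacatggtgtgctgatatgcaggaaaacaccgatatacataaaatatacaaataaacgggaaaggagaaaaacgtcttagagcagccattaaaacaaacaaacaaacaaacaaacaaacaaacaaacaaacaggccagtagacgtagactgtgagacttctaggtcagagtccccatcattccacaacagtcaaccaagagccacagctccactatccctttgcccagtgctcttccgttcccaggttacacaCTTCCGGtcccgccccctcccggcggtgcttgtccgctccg
Mrpl50: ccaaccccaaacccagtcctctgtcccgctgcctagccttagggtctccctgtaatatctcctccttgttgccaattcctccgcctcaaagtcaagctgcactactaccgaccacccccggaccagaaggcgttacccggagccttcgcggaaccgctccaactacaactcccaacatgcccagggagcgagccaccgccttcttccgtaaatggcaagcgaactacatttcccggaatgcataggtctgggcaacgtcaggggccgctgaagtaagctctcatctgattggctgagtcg

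Only 1 pair of MRP genes had overlapping windows on opposite strands. Mrps11 (chr7:78432617-78432916, plus strand) and Mrpl46 (chr7:78432788-78433087, minus strand) start 30 bases apart and run in opposite directions, one toward a small-subunit and the other toward a large-subunit protein. They are shown because their transcripts are compared below.
Mrps11: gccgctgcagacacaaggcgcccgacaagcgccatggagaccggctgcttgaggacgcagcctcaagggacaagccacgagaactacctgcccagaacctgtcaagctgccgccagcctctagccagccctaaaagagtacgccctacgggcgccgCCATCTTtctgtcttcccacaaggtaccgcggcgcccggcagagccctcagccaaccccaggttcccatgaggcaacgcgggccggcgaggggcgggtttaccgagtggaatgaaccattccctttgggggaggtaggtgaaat
Mrpl46: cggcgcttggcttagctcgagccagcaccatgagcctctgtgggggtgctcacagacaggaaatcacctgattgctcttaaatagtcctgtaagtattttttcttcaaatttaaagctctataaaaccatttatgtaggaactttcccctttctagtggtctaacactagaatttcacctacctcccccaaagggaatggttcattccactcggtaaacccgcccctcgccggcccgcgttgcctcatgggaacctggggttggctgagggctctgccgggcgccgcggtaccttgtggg

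The comparison of cKO with WT set hearts collected 4 weeks after induction against hearts collected at 51 weeks, so it holds time together with genotype. In RV, 42 of 76 tested MRP genes were lower in cKO and none was higher (edgeR quasi-likelihood test, Benjamini-Hochberg adjusted p below 0.05 over all 14150 genes tested), where 20.3% of all genes were called lower and 22.0% higher. In LV, 60 of 76 were lower and none higher, where 23% of 13846 genes were lower and 23.6% higher. The median log2 fold change of the MRP genes was -0.59 in RV and -0.94 in LV, where all genes tested had medians of 0.02 and 0.05. In bulk tissue, fewer cardiomyocytes and less of the transcript per cardiomyocyte cannot be told apart. Without animal WT_HBSS_5819 the counts were 40 in RV and 59 in LV.

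The fall was spread over both subunits and over both classes of protein. Of the large-subunit genes, 28 of 49 were lower in RV and 43 of 49 in LV (medians -0.60 and -0.97). Of the small-subunit genes, 13 of 26 were lower in RV and 16 of 26 in LV (medians -0.56 and -0.82). Genes with a bacterial counterpart had medians of -0.58 and -0.92, and those particular to mitochondria -0.60 and -0.97. In RV 73 of the 76 fold changes lay below zero, and in LV 74.

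The respiratory chain fell further. In RV 71 of 78 nuclear chain genes were lower and 1, Cox6a1, was higher (log2 fold change 0.65), and in LV 76 of 79 were lower, with medians of -1.10 and -1.52. Complex II, which is encoded wholly in the nucleus, had medians of -1.34 and -1.92, and the other complexes had medians between -1.01 and -1.24 in RV and between -1.42 and -1.77 in LV. No test of the difference between the gene groups was made.

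**Figure D2:**
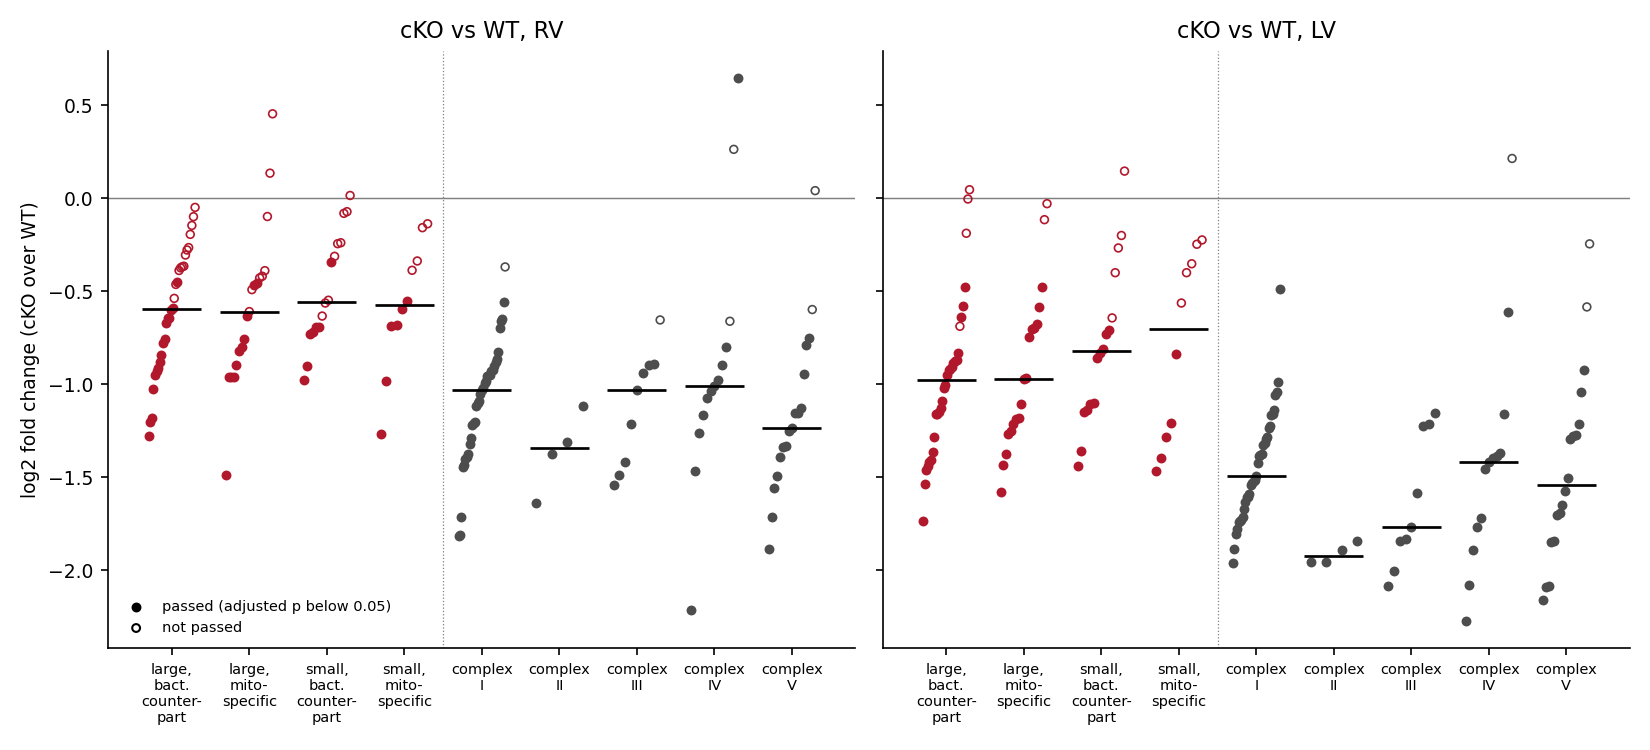
Log2 fold change of cKO over WT in RV (left) and LV (right) for MRP genes by subunit and class (red) and for nuclear genes of complexes I to V (grey). Each point is 1 gene, filled where it passed, and each bar is the median of its column. The complexes have medians of -1.01 or lower, and the MRP genes as a whole have medians of -0.59 in RV and -0.94 in LV.

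Whole libraries were also compared without a fit. Every cKO library lay below every WT library for 22 of 76 MRP genes in RV, where 12.4% of all genes did so, and for 43 of 76 in LV, where 15.1% did. Of the chain genes, 45 of 78 in RV and 70 of 79 in LV were separated in this way.

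Markers of cell types moved with these results. Summed cardiomyocyte markers were 9686 to 32655 TPM in cKO RV and 46071 to 66860 TPM in WT RV, and 10329 to 32951 TPM in cKO LV and 65743 to 76160 TPM in WT LV. Of 14 such markers 12 were lower in RV and 14 in LV, with medians of -1.12 and -1.56, which is further than the MRP genes fell. All 7 macrophage markers were higher in both ventricles, with sums of 917 to 2484 TPM in cKO RV and 214 to 412 TPM in WT RV. Fibroblast markers were higher for 5 of 7 in RV and 4 of 7 in LV. The part of these shifts in the fall of the MRP genes was not tested.

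The cKO animals differed among themselves in both kinds of transcript. In RV, PKP2_HBSS_2006 and PKP2_HBSS_2052 had 919 and 882 CPM of MRP transcripts and cardiomyocyte marker sums of 9686 and 14940 TPM. PKP2_HBSS_3217 and PKP2_HBSS_3213 had 1087 and 1406 CPM and marker sums of 20703 and 32655 TPM. The pair with more cardiomyocyte marker RNA thus held more MRP RNA, although the order within the first pair was the opposite.

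Mrpl39, a large-subunit protein found only in mitochondria, had the largest fall in RV. It had 10.1, 6.71, 14.3 and 10.9 CPM in the cKO RV libraries, against 22.7, 31.5 and 38.6 CPM (lowest, median and highest) in WT RV (log2 fold change -1.49, SE 0.20, edgeR adjusted p = 3.66e-05). In LV it had 13.6, 15.7, 21.7 and 14.6 CPM in cKO, against 32.9, 43.6 and 54.9 CPM in WT (log2 fold change -1.37, SE 0.16, adjusted p = 1.11e-05). The groups did not overlap in either ventricle.

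Mrps35, a small-subunit protein particular to mitochondria, and Mrpl18, whose bacterial counterpart binds ribosomal RNA in the large subunit, fell in both ventricles without overlap. Mrps35 had 22.3, 23, 35.3 and 25 CPM in cKO RV and 53.5, 67.9 and 77.2 CPM (lowest, median, highest) in WT RV, which gave a log2 difference of -1.27 (SE 0.14, adjusted p = 6.7e-06). Its log2 fold change in LV was -1.40 (SE 0.17, adjusted p = 1.45e-05). Mrpl18 had 21.4, 23.2, 38.8 and 24.5 CPM in cKO RV and 51.9, 67.8 and 74.8 CPM in WT RV (log2 fold change -1.21, SE 0.16, edgeR adjusted p = 2.8e-05). Its log2 fold change in LV was -1.53 (SE 0.20, adjusted p = 2.15e-05). These are the genes whose windows above hold 1 CCGGAAG (Mrps35, on the opposite strand) and 1 AAGATGG (Mrpl18, on the opposite strand). The windows of Mrpl39 and Mrpl55, with the largest falls in RV and in LV, hold neither.

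Mrpl55, the counterpart of a bacterial large-subunit protein, had the largest fall in LV on lower counts. It had 1.3, 4.09, 4.50 and 5.40 CPM in cKO LV and 9.79, 12.1 and 18.7 CPM in WT LV (log2 fold change -1.73, SE 0.32, edgeR adjusted p = 4.2e-04), with no overlap. In RV it had 1.75, 4.02, 7.23 and 3.59 CPM in cKO and 6.25, 10.5 and 15.9 CPM in WT, where 1 cKO library lay within the WT range. The other genes among the largest falls were Mrpl2 (-1.18) and Mrpl16 (-1.02) in RV and Mrps36 (-1.63), Mrpl50 (-1.58), Mrps23 (-1.47) and Mrpl28 (-1.46) in LV.

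At the other end, 15 of the 76 tested MRP genes passed in neither ventricle. The share of all genes that passed in neither was not computed. Mrpl24 had 29.3, 37.3, 46.5 and 32.7 CPM in cKO RV and 34.3, 42.4 and 47.0 CPM in WT RV, and log2 fold changes of -0.15 in RV (SE 0.13, adjusted p = 0.38) and 0.05 in LV (SE 0.12, adjusted p = 0.776). The groups overlapped, although 2 of the 4 cKO RV libraries lay below the lowest WT RV library. Mrps10 had log2 fold changes of -0.24 and 0.15, and Mrpl52, with the highest value in RV, of 0.45 (adjusted p = 0.0611) and -0.03. These were chosen after their values were seen.

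Of the genes that share a promoter region, 1 fell and 1 did not pass. Mrpl46 had 3.06, 3.83, 7.62 and 4.03 CPM in cKO RV and 4.36, 9.56 and 13.6 CPM in WT RV, and fell by 0.96 on the log2 scale in RV and by 1.19 in LV (adjusted p = 0.0143 and 0.00324). Mrps11 had 2.96, 3.06, 4.34 and 4.99 CPM in cKO RV and 0.921, 4.38 and 5.09 CPM in WT RV, with log2 fold changes of 0.02 in RV (SE 0.34, adjusted p = 0.976) and -0.20 in LV (SE 0.26, adjusted p = 0.564). The difference between the pair was not tested. The annotated genes share 413 bases on opposite strands. The library kit is described as stranded, and whether any reads were given to the wrong gene was not tested.

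The Mrps18 paralogs, which descend from 1 bacterial gene and sit at different places in the mitoribosome, had different values. Mrps18c averaged 5.13 ± 2.05 CPM in cKO RV and 8.65 ± 1.66 CPM in WT RV and fell in RV by 0.69 and in LV by 1.10 on the log2 scale (adjusted p = 0.0351 and 0.00152). Mrps18a, now placed in the large subunit, had log2 fold changes of -0.43 in RV (adjusted p = 0.106) and -0.70 in LV (adjusted p = 0.00474). Mrps18b had -0.14 and -0.25, with adjusted p = 0.461 and 0.306.

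Of the 42 genes lower in RV, 41 were also lower in LV, that is 97.6% of the RV list and 68.3% of the LV list. Both ventricles came from the same animals, and the overlap among all genes tested was not computed. Mrps25, a small-subunit protein, was the exception among the 42, with 18.8, 23.8, 26.3 and 20.1 CPM in cKO RV and 29.4, 34.6 and 42.7 CPM in WT RV (log2 fold change -0.60, SE 0.13, edgeR adjusted p = 0.00198). In LV its log2 fold change was -0.22 (SE 0.14, adjusted p = 0.205). Among windows that hold CCGGAAG, 10 of 23 genes were lower in RV (43.5%) and 18 of 23 in LV (78.3%), against 60.4% and 79.2% of the 53 tested genes without it.

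Genes that build or serve the mitoribosome under other names were counted beside it. Of 6 further mitoribosome proteins, 3 were lower in RV and 6 in LV (medians -0.51 and -0.82). The largest change was in Ptcd3, an RNA-binding protein of the small subunit, with log2 fold changes of -1.32 in RV and -1.96 in LV (edgeR adjusted p = 2.18e-04 and 8.01e-06). Of 21 assembly factors tested, 9 and 12 were lower (medians -0.53 and -0.71), including Fastkd2, which binds mitochondrial ribosomal RNA (-0.93 and -1.21), and the assembly GTPase Gtpbp10 (-0.69 and -1.02). Of 14 translation factors, 9 and 12 were lower (medians -0.57 and -1.06), with the elongation factor Gfm1 at -1.04 and -1.54. None of these 3 lists had a member called higher.

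Lists of other mitochondrial functions were counted in the same way. Of 20 mitochondrial tRNA synthetases and related enzymes, 9 were lower in RV and 11 in LV (medians -0.37 and -0.49), among them Gatb (-0.89 and -1.10) and Iars2 (-0.58 and -0.86). Of 16 genes of mitochondrial transcription and RNA handling, 8 and 9 were lower (medians -0.36 and -0.82), among them the transcription factor Tfb2m (-1.10 and -1.82) and Lrpprc, which stabilises mitochondrial mRNAs (-1.17 and -1.46). Of 7 genes of mitochondrial DNA replication, 2 were lower in RV, and in LV 2 were lower and 2 higher (medians -0.11 and -0.06). Of 12 regulators of energy metabolism, 6 were lower in each ventricle and 2 in RV and 3 in LV were higher, and the nuclear receptors Esrrg (-1.66 and -2.20) and Ppara (-1.76 and -2.20) were among those that fell. Mitochondrially encoded RNA took 24.4 ± 1.07% of the counts in cKO RV and 29.4 ± 3.63% in WT RV, and 31.5 ± 4.33% in cKO LV and 35.6 ± 4.45% in WT LV.

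The vector groups were next compared with WT, and the ventricles gave different pictures. In RV most fold changes lay above zero. AAV_3E13 had 12 genes higher and 2 lower of 76 (backgrounds 11.8% and 10%, median 0.12; in the fits with limma, with the length covariate or without the low-count filter none was lower), AAV_1E14 had 38 higher and 1 lower (15.4% and 14.1%, median 0.40), and AAV_1E14_2.5wk had 27 higher and 3 lower (17.8% and 18.5%, median 0.29). The count of higher genes in AAV_3E13 is close to the background share, and its count of lower genes is below it. Without animal WT_HBSS_5819 the counts of the 3 groups were 9 and 2, 34 and 2, and 25 and 3. Without animal PKP2_m1e14_2.5wk_5814 the last group had 25 and 2. With mean relative transcript length as a covariate AAV_1E14_2.5wk had 18 higher and 1 lower, and the lengths of its RV libraries do not overlap those of WT RV. For AAV_1E14 the call count was 24 without animal PKP2_m1e14_2034.

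In LV the lower dose remained below WT. AAV_3E13 had 54 of 75 MRP genes lower and none higher (background 19.2% lower, median -0.49), and 65 of 79 chain genes were lower (median -0.71). AAV_1E14 had 0 of 76 called (background 0.00750%, median -0.03), with 3 at an unadjusted p under 0.05 and 0 by DESeq2 or limma. AAV_1E14_2.5wk also had 0 of 76 called by edgeR (background 1.49%, median -0.09), with 13 at an unadjusted p under 0.05, 2 by DESeq2 and 0 by limma, and without animal PKP2_m1e14_2.5wk_5814 it had 1. Of the chain genes, 0 were called in AAV_1E14 and 9 were lower in AAV_1E14_2.5wk.

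**Figure D3:**
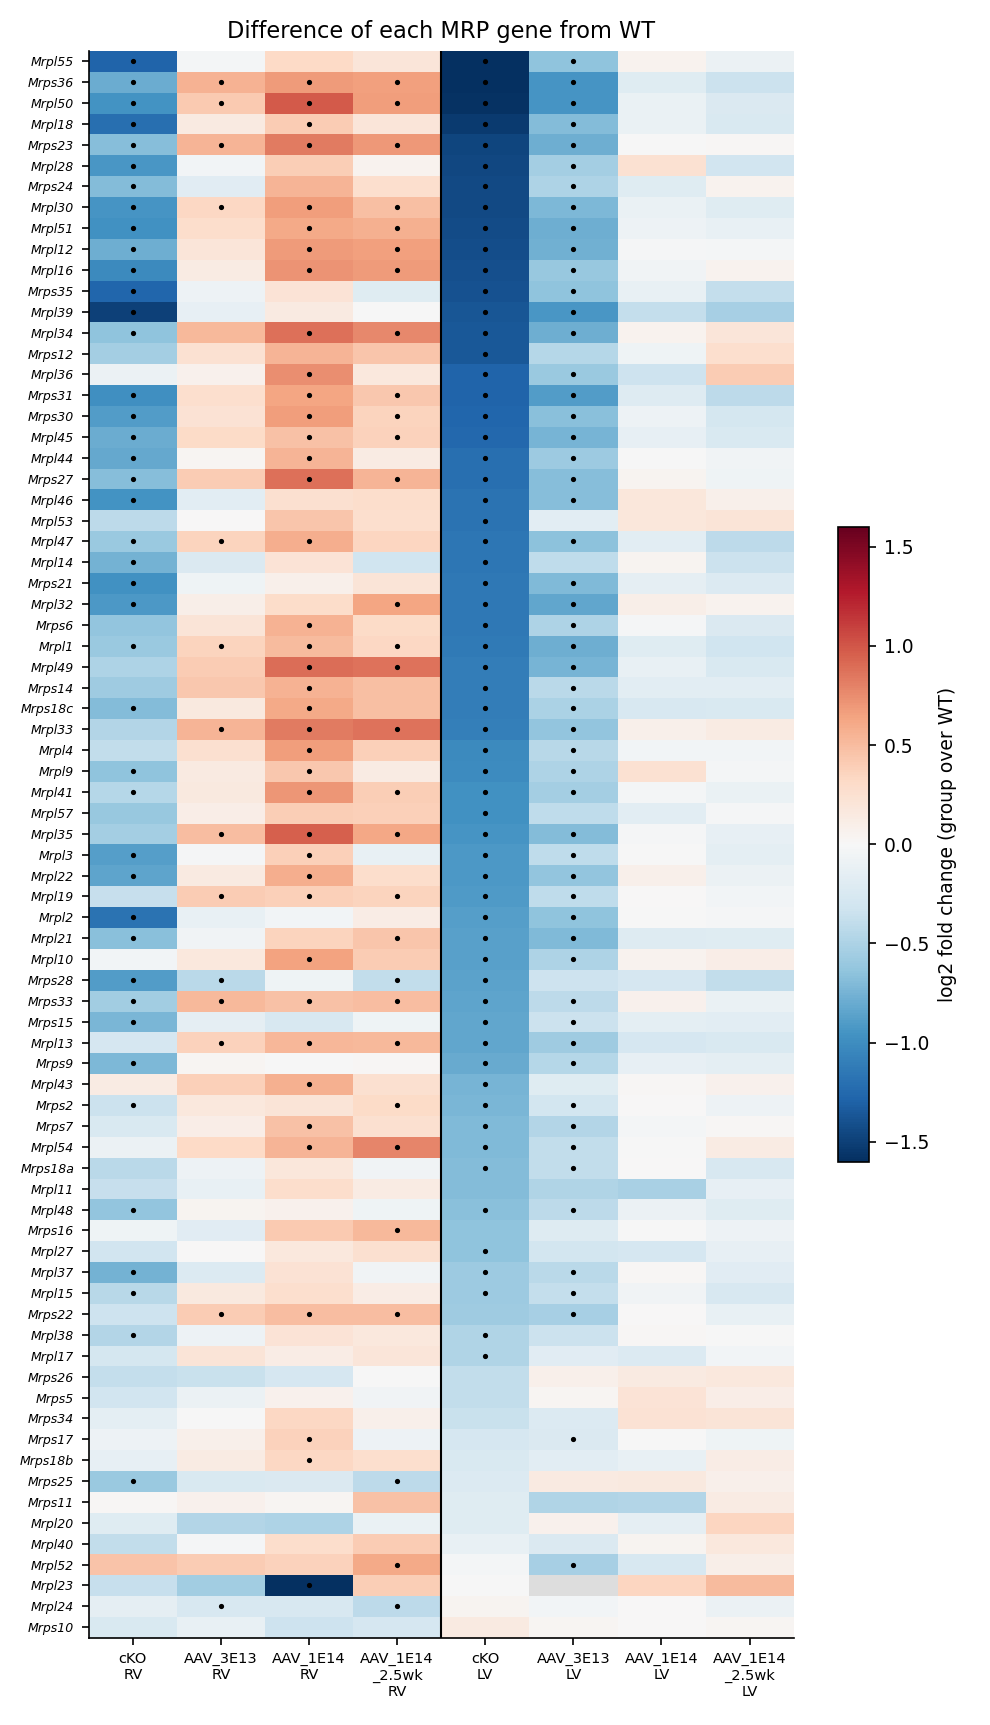
Log2 fold change over WT of the 76 tested MRP genes (rows, ordered by cKO LV) in 4 groups in RV (left) and LV (right), with a dot where the gene passed and grey where it was not tested (values beyond the colour scale take its end colour). Blue fills the cKO columns and the AAV_3E13 column of LV, with medians of -0.59, -0.94 and -0.49, and red prevails in the AAV_1E14 column of RV, with a median of 0.40.

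Mrpl50, a large-subunit protein found only in mitochondria, showed this pattern in both ventricles. In RV it had 42.4, 50.6 and 59.7 CPM (lowest, median, highest) in AAV_3E13, 87.8, 76.0, 69.3, 79.4 and 61.1 CPM in AAV_1E14, 52.2, 59.5 and 70.1 CPM in AAV_1E14_2.5wk, and 29.2, 37.1 and 45.0 CPM in WT. In LV it had 25.9, 30.4 and 36.4 CPM in AAV_3E13, 69.6, 51.0, 46.2, 56.8 and 51.6 CPM in AAV_1E14, 44.5, 48.9 and 58.3 CPM in AAV_1E14_2.5wk, and 51.5, 60.5 and 67.5 CPM in WT. All AAV_1E14 and AAV_1E14_2.5wk RV libraries lay above all WT RV libraries, and all AAV_3E13 LV libraries lay below all WT LV libraries. The log2 fold changes over WT in RV were 0.42 for AAV_3E13 (SE 0.10, adjusted p = 0.00525), 0.98 for AAV_1E14 (SE 0.11, adjusted p = 1.28e-04) and 0.67 for AAV_1E14_2.5wk (SE 0.10, adjusted p = 1.07e-04). In LV AAV_3E13 fell by 0.95 (SE 0.09, adjusted p = 4.54e-07).

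Mrps23, a small-subunit protein, had 42.1, 70.9 and 80.3 CPM in AAV_3E13 RV, against 34.6, 41.5 and 68.6 CPM in WT RV, a rise of 0.54 on the log2 scale (SE 0.15, adjusted p = 0.0128) with overlapping libraries. In LV it had 27.3, 39.7 and 45.6 CPM in AAV_3E13 and 60.7, 67.1 and 74.4 CPM in WT (log2 fold change -0.78, SE 0.09, adjusted p = 2.13e-06) without overlap. Mrps36, outside the ribosome, had the same directions, with log2 fold changes of 0.56 in RV (adjusted p = 0.0116) and -0.95 in LV (adjusted p = 3.08e-05). Mrpl39 differed, with 19.9, 28.6 and 34.8 CPM in AAV_3E13 RV and 22.7, 31.5 and 38.6 CPM in WT RV, and a log2 fold change in LV of -0.94 (SE 0.13, adjusted p = 2e-05).

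The other genes with the largest rises over WT in RV were the large-subunit members Mrpl35 (0.96) and Mrpl49 (0.89) in AAV_1E14, Mrpl33 in AAV_3E13 (0.54) and AAV_1E14_2.5wk (0.87), and Mrpl49 (0.87) and Mrpl54 (0.78) in AAV_1E14_2.5wk. Falls in RV were few. Mrpl24 fell in AAV_3E13 (-0.25, adjusted p = 0.0461) and in AAV_1E14_2.5wk (-0.42, adjusted p = 0.00169), as did the small-subunit gene Mrps28 (-0.43 and -0.40), and Mrps25 fell in AAV_1E14_2.5wk (-0.42, adjusted p = 0.00405). Mrpl23 had 1.19, 0.425, 0.721, 0.133 and 0.549 CPM in AAV_1E14 RV and 0.436, 1.77 and 5.34 CPM in WT RV, a fall of 1.98 on the log2 scale (SE 0.63, adjusted p = 0.0272), and its reads may be split with the pseudogene row. In all, 40 genes were lower in AAV_3E13 LV and higher in at least 1 vector group in RV. These calls came from separate libraries of partly the same animals, and the share of all genes that met this rule was not computed. WT RV, the reference for the RV values, lay below WT LV for 68 of 76 MRP genes by sign of fold change.

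Markers moved with these groups as well. Summed cardiomyocyte markers in RV were 52588 to 74421 TPM in AAV_3E13, 78154 to 93872 TPM in AAV_1E14, 64182 to 83350 TPM in AAV_1E14_2.5wk and 46071 to 66860 TPM in WT. In LV they were 35911 to 51262 TPM in AAV_3E13, where 13 of 14 were called lower, and 65743 to 76160 TPM in WT. The cardiomyocyte markers did not all move alike in RV. Mean Tnnt2 was 2771, 3046 and 2904 CPM in AAV_3E13, AAV_1E14 and AAV_1E14_2.5wk, against 4305 in WT. Mean Pln was 4895, 7688 and 5271 CPM, against 3901 in WT. Macrophage marker sums in RV averaged 546, 365 and 451 TPM in these groups, against 296 in WT. Fibroblast marker sums averaged 2317, 1246 and 2319 TPM, against 1099 in WT. All 7 macrophage markers and 6 of 7 fibroblast markers were higher in AAV_3E13 LV. The part of these markers in the MRP values was not tested.

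**Figure D4:**
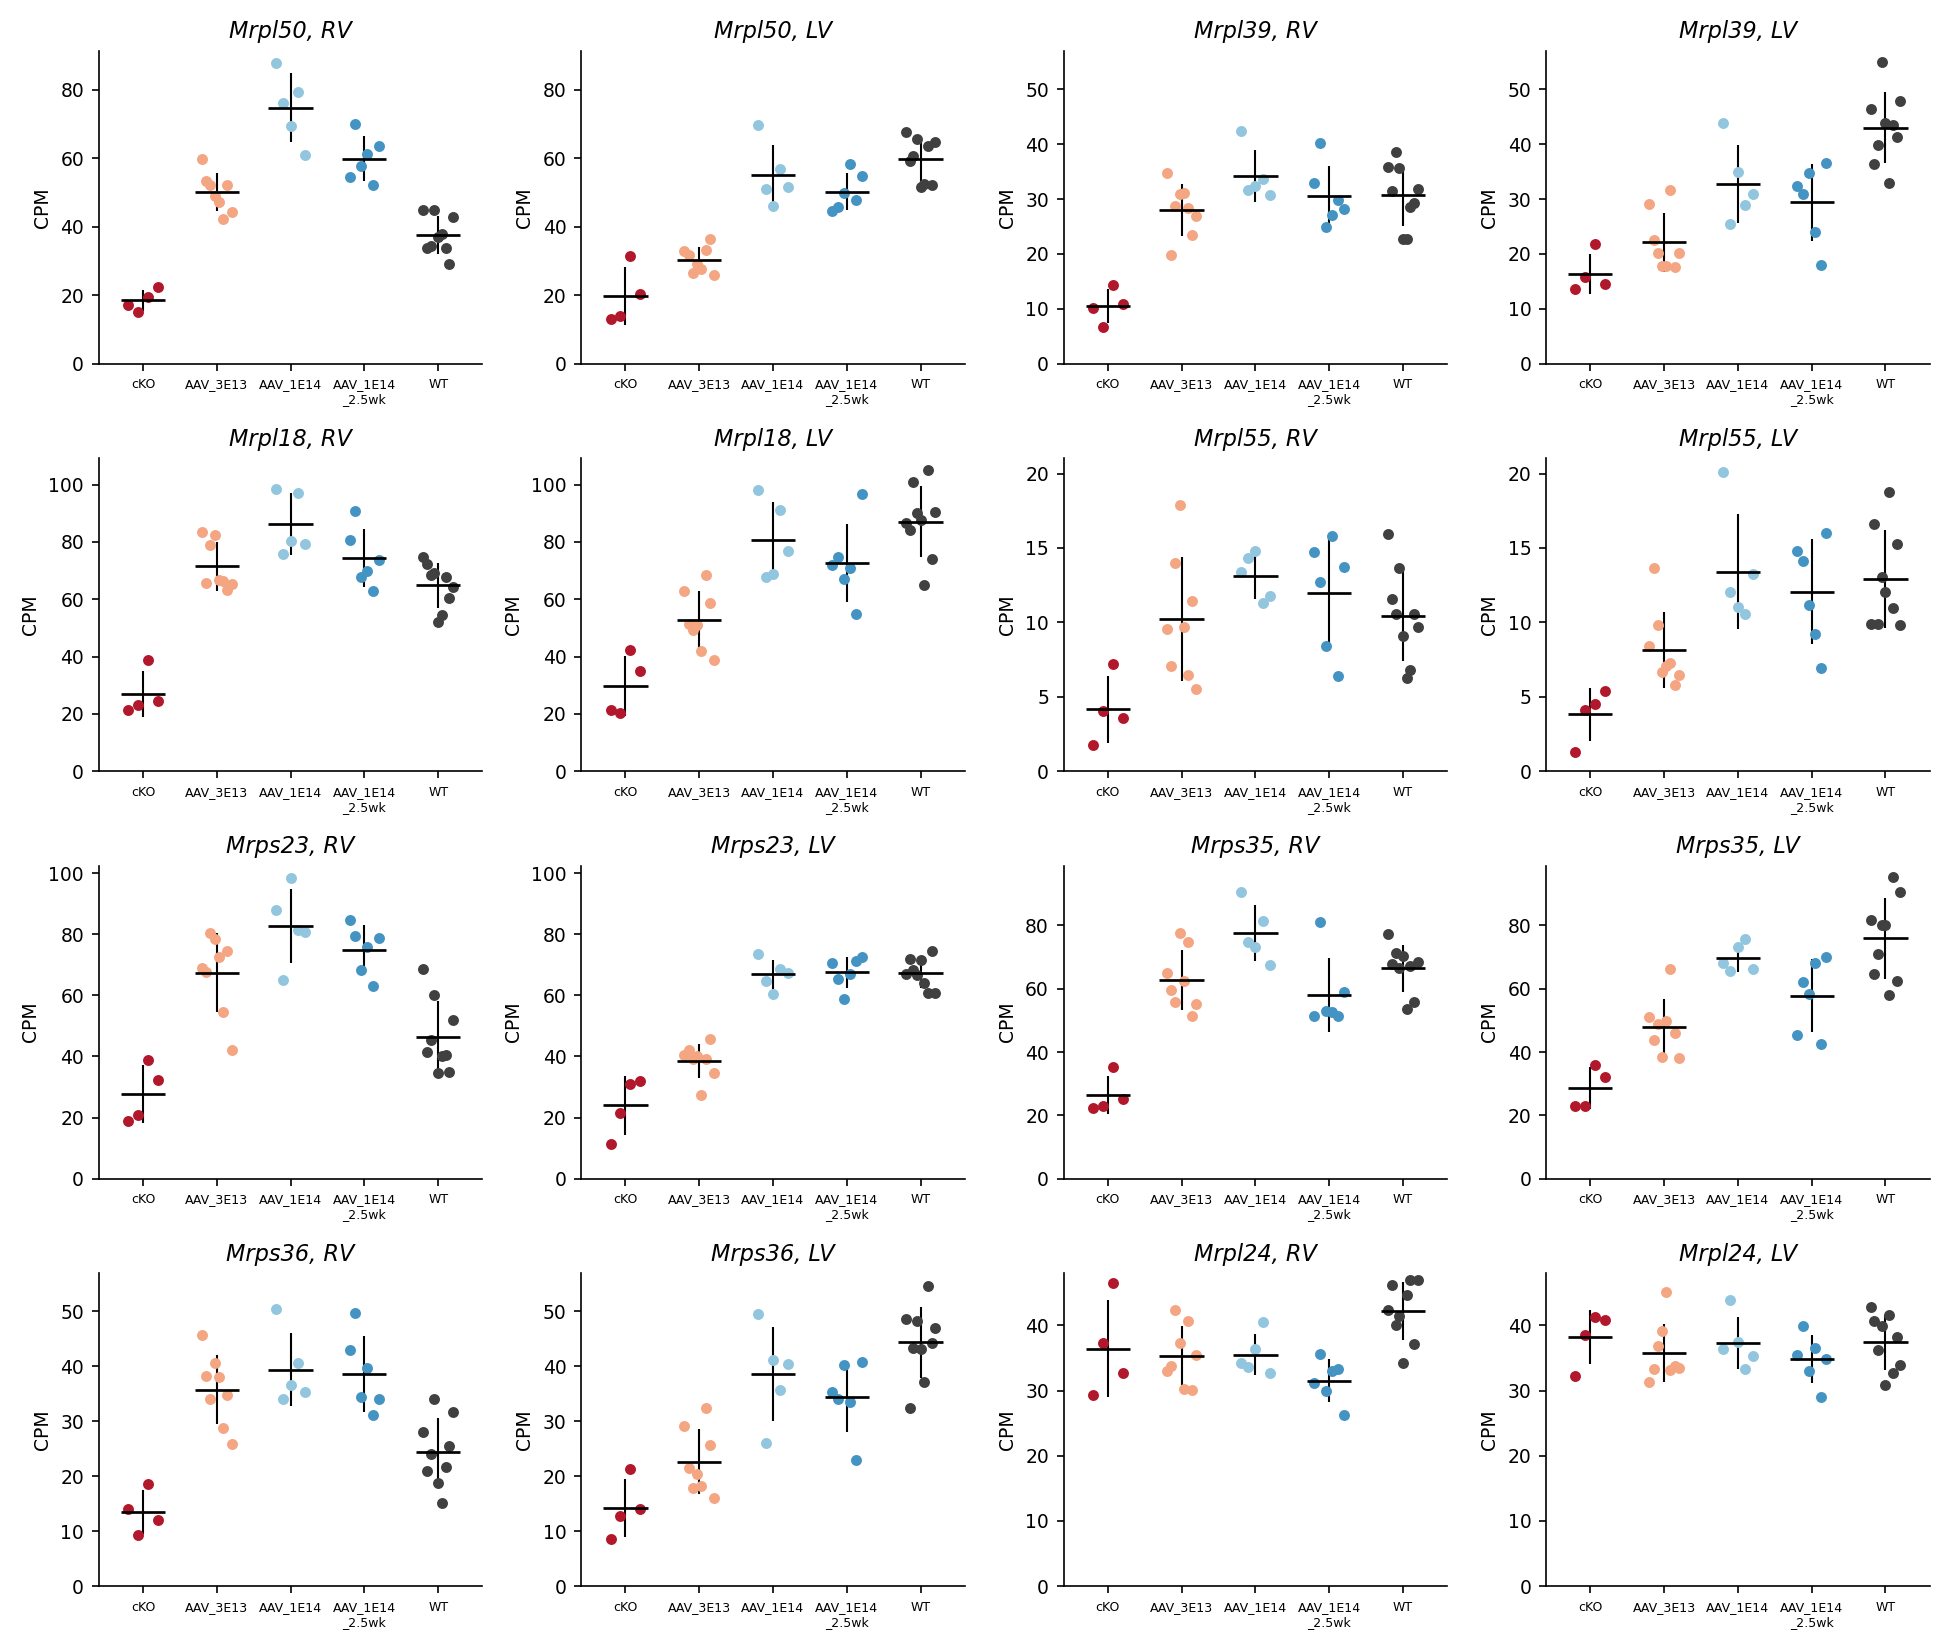
CPM of 8 MRP genes in every library by group, with RV and LV side by side on 1 scale per gene. Points are libraries, horizontal bars means and vertical bars ± SD. For Mrpl50 the AAV_3E13 libraries lie at 42.4 to 59.7 in RV, near or above WT, and at 25.9 to 36.4 in LV, below WT, whereas the Mrpl24 libraries of each group overlap those of WT.

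The vector groups were also set against the cKO group, which was collected earlier. In RV, 47 of 76 were higher in AAV_3E13 (background 19.4%, median 0.74), 62 of 75 in AAV_1E14 (24.2%, median 1.08) and 58 of 76 in AAV_1E14_2.5wk (22.6%, median 0.88), and none was lower. In LV, 7 of 76 were higher in AAV_3E13 (8.58%, median 0.39), 49 in AAV_1E14 (17.3%, median 0.89) and 46 in AAV_1E14_2.5wk (17.4%, median 0.82), and none was lower. The AAV_3E13 LV count, near its background, was 2 without animal PKP2_HBSS_2006 and 13 without animal PKP2_HBSS_3213 or PKP2_HBSS_3217. DESeq2 and limma each called 16 MRP genes there, and 46 chain genes were higher by edgeR in the same comparison. Without animal PKP2_m1e14_2.5wk_5814, AAV_1E14_2.5wk had 54 in RV and 38 in LV. With mean relative transcript length as a covariate no MRP gene passed for AAV_1E14_2.5wk in RV, where the lengths of the 2 groups do not overlap.

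Mrpl50 had the largest rise over cKO in RV in AAV_3E13 and AAV_1E14 and the next largest, after Mrpl16 (1.75), in AAV_1E14_2.5wk, with log2 fold changes over cKO of 1.39 in AAV_3E13 (SE 0.13, adjusted p = 8.66e-06), 2.00 in AAV_1E14 (SE 0.16, adjusted p = 1.36e-05) and 1.66 in AAV_1E14_2.5wk (SE 0.13, adjusted p = 1.72e-05). It had 17.2, 15.1, 19.4 and 22.3 CPM in cKO RV, below every vector-treated library. In LV the largest rises over cKO were Mrpl55 at 1.04 in AAV_3E13 and 1.77 in AAV_1E14 and Mrpl36 at 1.68 in AAV_1E14_2.5wk. Mrps12, whose bacterial counterpart lies at the decoding site, was 1.62 higher on the log2 scale in AAV_1E14_2.5wk LV (SE 0.22, edgeR adjusted p = 6.62e-04), with 8.69, 10.1 and 13.4 CPM there, against 2.74, 3.46 and 3.98 CPM (lowest, median, highest) in cKO LV.

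The dose was compared within the vector groups. In RV 5 of 76 MRP genes were higher in AAV_1E14 than in AAV_3E13 (background 5.02%, median 0.28), among them Mrpl16 (0.57), Mrpl50 (0.56) and Mrpl41 (0.54). The count was 1 without PKP2_m1e14_2034, PKP2_m1e14_5726 or PKP2_m1e14_5822, 2 without PKP2_m3e13_2033, PKP2_m3e13_2048, PKP2_m3e13_5759 or PKP2_m3e13_5809, and 9 without PKP2_m3e13_2045, PKP2_m3e13_2047 or PKP2_m3e13_5768. It was 1 with the length covariate, 2 by limma and 12 by DESeq2. In LV 37 of 76 were higher at the higher dose (background 10.8%, median 0.45) and none was lower. This count was 16 without animal PKP2_m1e14_2034, 24 without animal PKP2_m1e14_5726, 21 without animal PKP2_m1e14_5825 and 24 without animal PKP2_m3e13_5809. In LV the rise of Mrpl50 was 0.83 (SE 0.11, edgeR adjusted p = 4.65e-04), and the largest were in Mrpl32 (0.93), Mrpl46 (0.85) and Mrpl34 (0.84).

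The time of dosing was compared at 1e14, with the early time uncertain as stated above. In RV 1 MRP gene was higher in AAV_1E14_2.5wk than in AAV_1E14 and 2 were lower (backgrounds 4.97% and 3.95%, median -0.11), namely Mrpl23 (2.39), Mrpl14 (-0.53) and Mrpl3 (-0.48). The count was 1 without PKP2_m1e14_2.5wk_5814, PKP2_m1e14_2.5wk_5755, PKP2_m1e14_2034, PKP2_m1e14_5726 or PKP2_m1e14_5822, 0 without PKP2_m1e14_2.5wk_5806, PKP2_m1e14_2.5wk_5807 or PKP2_m1e14_2.5wk_5810, and 9 without PKP2_m1e14_2.5wk_5801. It was 0 with the length covariate and 8 by DESeq2. In LV 0 of 76 differed by edgeR (background 0%, median -0.05), with 2 at an unadjusted p under 0.05 and 0 by DESeq2 or limma.

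The ventricles of the same group were compared directly. In cKO 0 of 76 MRP genes differed between RV and LV by edgeR (background 0.00726%, median -0.02), with 2 at an unadjusted p under 0.05 and 0 by DESeq2 or limma. In AAV_3E13 25 of 75 were higher in RV and none lower (background 10.8% higher, median 0.29), a count that was 14 without animal PKP2_m3e13_2047. In AAV_1E14 0 of 75 were called (background 2.95%, median 0.14), with 14 at an unadjusted p under 0.05 and 2 each by DESeq2, limma and the fit with the animal as a block. In AAV_1E14_2.5wk 0 of 76 were called (background 0.0226%, median 0.05), with 4 at an unadjusted p under 0.05 and 0 by DESeq2 or limma. In WT 34 of 76 were lower in RV and 1, Mrps25, was higher (backgrounds 15.4% and 12.3%, median -0.31).

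WT libraries thus carried a difference between ventricles that enters each comparison with WT. The WT RV and WT LV libraries also differed in other ways. Their mean total counts were 9.74 M and 12.2 M, and their mean relative transcript lengths 0.040 and -0.034 on the log2 scale. The mitochondrial ribosomal RNA mt-Rnr1 took 0.743% and 0.357% of their counts. The part of depth and of mt-Rnr1 in the difference was not tested. Mrps31, a small-subunit protein, had 15.7, 21.7 and 24.5 CPM in WT RV and 27.2, 36.4 and 45.4 CPM in WT LV (lowest, median, highest), and RV over LV was -0.82 on the log2 scale (SE 0.11, edgeR adjusted p = 4.62e-05), with no overlap. Mrps36 (-0.86) and Mrpl49 (-0.84) had the largest falls. Of 14 cardiomyocyte markers 13 were lower in WT RV than in WT LV (median -0.40), and without animal WT_HBSS_5819, whose RV library held atrial markers, 31 MRP genes were lower and 1 was higher.

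Whether a group's difference from WT differed between RV and LV was tested as an interaction. For cKO 0 of 76 MRP genes passed by edgeR (background 0.0272%, median RV minus LV difference 0.33), with 15 at an unadjusted p under 0.05 and 3 called with the length covariate, so the larger LV counts above are not shown to differ between ventricles. For AAV_3E13, 46 of 76 had a higher difference in RV and 1, Mrps25, a lower one (backgrounds 18.8% and 18.1%, median 0.64). For AAV_1E14 it was 24 higher and none lower (background 11.4%, median 0.50), and 15 without animal PKP2_m1e14_5726. For AAV_1E14_2.5wk it was 29 higher and 1 lower, again Mrps25 (backgrounds 10.7% and 7.72%, median 0.40), and in all 17 without animal PKP2_m1e14_2.5wk_5801 and 16 with the length covariate. Without animal WT_HBSS_5819 the counts called were 45, 21 and 28, and without animal PKP2_m1e14_2.5wk_5814 the last was 27.

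**Figure D5:**
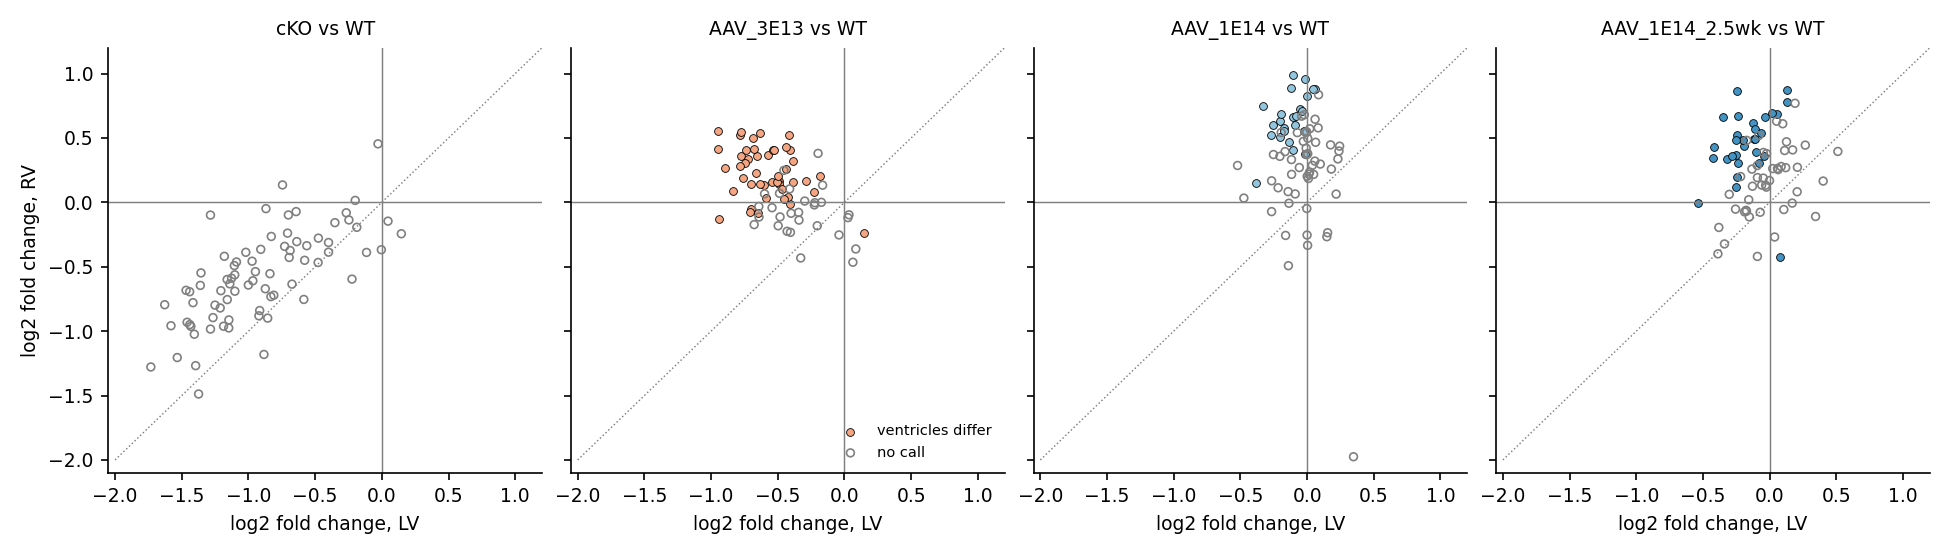
Log2 fold change over WT in LV (horizontal axis) and RV (vertical axis) of the tested MRP genes in cKO and the 3 vector groups, with filled points where the 2 ventricles differed in the interaction test and the dotted line marking equal values. The points of the cKO panel lie mostly below zero on both axes with none filled, and those of AAV_3E13 lie mostly to the left of zero, with 47 filled.

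The largest interaction for AAV_3E13 was in Mrps36, with an RV minus LV difference of 1.51 on the log2 scale (SE 0.21, adjusted p = 1.06e-06), followed by Mrpl50 at 1.37 (SE 0.12, adjusted p = 7.71e-09) and Mrps23 at 1.33 (SE 0.17, adjusted p = 5.47e-07). For AAV_1E14 it was 1.09 for Mrpl50 (SE 0.15, adjusted p = 1.23e-04), and for AAV_1E14_2.5wk 1.14 for Mrpl49 (SE 0.32, adjusted p = 0.0143), 1.04 for Mrps36 (SE 0.21) and 0.93 for Mrpl50 (SE 0.13, adjusted p = 7.69e-05). Mrps25 had -0.38 for AAV_3E13 (adjusted p = 0.0197), with 25.4, 29.7 and 35.0 CPM in AAV_3E13 RV and 29.4, 34.6 and 42.7 CPM in WT RV, and 25.4, 28.7 and 34.5 CPM in AAV_3E13 LV and 21.7, 27.4 and 32.6 CPM in WT LV. The chain had 48 genes higher and 1 lower in the AAV_3E13 interaction, and 11 of 14 cardiomyocyte markers were higher, whose part in the MRP values was not tested.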

How the data were processed

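RV and LV RNA of 32 mice was sequenced after an extraction described as specific to polyadenylated RNA and a ribosomal depletion kit, so the selection is uncertain. The authors trimmed reads with fastp and quantified them with Salmon 1.8.0 (bias corrections, GRCm39) and tximport. The deposited estimated counts per gene are not normalised, and the deposited TPM and the deposited mean effective transcript length in bases (a score per gene and library) come from the same runs. The 37 mitochondrially encoded rows and 1 unnamed row (at most 0.00136% of a library) were left out, and counts were rounded to whole numbers. TPM was rescaled over the genes kept. Total counts of 7.96 M to 14.6 M per library limit the precision of genes of a few CPM.

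Groups were taken from the labels. Each comparison was fitted by edgeR 4.0.16 under R 4.3.3 (TMM, filterByExpr, quasi-likelihood F test, Benjamini-Hochberg over all genes tested, threshold 0.05), with only the libraries compared in each fit and no covariates. CPM were scaled by TMM over all libraries. The MRP genes, gene lists and named genes were chosen with earlier results of these data known. Genes were named by size of change (the 6 largest falls in cKO per ventricle, 3 in other comparisons), by level and by opposite calls, with additions stated in the text. The pipeline was tested on simulated data. Alternatives were DESeq2 1.42.0, no filter on low counts, limma 3.58.1 on log2(TPM + 1), mean relative effective length as a covariate, leaving out each animal, and the animal as a block. Both ventricles of an animal share its number, which pairs them: RV and LV deviations from the group mean, over 12970 genes, correlated at 0.138 in the median animal of 32 (range -0.0463 to 0.598). Sequences came from the GRCm39 genome and GENCODE M39.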

Additional observations from a re-analysis of the deposited data

Results flagged for a closer look

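In 3 groups the difference from WT was not the same in RV and LV, by the interaction test of edgeR (adjusted p below 0.05 over all genes tested). This held for 47 MRP genes in AAV_3E13, 24 in AAV_1E14 and 30 in AAV_1E14_2.5wk, of 76 tested in each, and all but Mrps25 in AAV_3E13 and AAV_1E14_2.5wk had the higher difference in RV. In WT the RV over LV fold change lay below zero for 68 of 76 MRP genes, of which 34 were called lower (background 15.4%). WT libraries enter all 3 tests. The sample of WT animal 13 stood apart for Mrpl28, a large-subunit protein, with 46.4 CPM in RV, against a median of 26.2 CPM in the other WT RV libraries. It was the only gap of its kind among 60 groups of values examined, and chance flags about 1 in 20 groups. The groups covered 10 named genes in cKO and WT, and the summed MRP level and its percentage of the chain in every group.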

How the results depend on the processing

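The fall of MRP genes in cKO against WT kept its direction and stayed within 1.5 times its count under every alternative run, in RV (42) and LV (60), as did the counts of AAV_1E14 against WT in RV (39) and of AAV_3E13 against WT in LV (54) outside the fits that left out 1 animal. Without a filter on low counts, AAV_3E13 against WT in RV had 9 calls in place of 14 and AAV_1E14 against AAV_3E13 in RV 3 in place of 5. With limma these were 25 and 2, AAV_3E13 against cKO in LV had 16 in place of 7, AAV_1E14 against AAV_3E13 in LV 21 in place of 37, and RV against LV in AAV_1E14 2 in place of 0. DESeq2 gave 12 for AAV_1E14 against AAV_3E13 in RV, 8 in place of 3 for AAV_1E14_2.5wk against AAV_1E14 in RV, 2 in place of 0 for AAV_1E14_2.5wk against WT in LV, 16 for AAV_3E13 against cKO in LV and 2 for RV against LV in AAV_1E14. The length covariate gave 19 in place of 30 for AAV_1E14_2.5wk against WT in RV, 0 in place of 58 against cKO in RV, 1 and 0 for the dose and time comparisons in RV, 3 in place of 0 for the cKO interaction and 16 in place of 30 for that of AAV_1E14_2.5wk. In AAV_3E13 against WT in RV the main split of 12 higher and 2 lower was 19 and 0 with that covariate, 9 and 0 without the filter and 25 and 0 with limma. The cause was not tested.

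With the animal as a replicate block, which pairs the ventricles, the calls were 37 in place of 35 for RV against LV in WT, 25 and 25 in AAV_3E13, and 2 in place of 0 in AAV_1E14. The interactions had 46 in place of 47, 32 in place of 24 and 30 and 30 for the vector groups and 0 for cKO, and no other call count changed.

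Leaving out each animal in turn gave, against WT in RV, 30 to 47 for cKO, 9 to 18 for AAV_3E13 (9 without animal PKP2_m3e13_2029 or PKP2_m3e13_2033), 24 to 44 for AAV_1E14 and 26 to 34 for AAV_1E14_2.5wk, and in LV 59 to 64, 50 to 56, 0 to 0 and 0 to 1 (1 without animal WT_HBSS_5803 or animal PKP2_m1e14_2.5wk_5814). Against cKO it gave 37 to 54, 55 to 65 and 51 to 62 in RV and 2 to 13, 38 to 55 and 36 to 53 in LV. AAV_1E14 against AAV_3E13 gave 1 to 9 in RV and 16 to 38 in LV, and AAV_1E14_2.5wk against AAV_1E14 0 to 9 in RV and 0 to 0 in LV. RV against LV gave 14 to 32 in AAV_3E13, 32 to 36 in WT and 0 to 0 in the others, and the interactions 43 to 50, 15 to 30, 17 to 29 and, for cKO, 0 to 0. In 10 of 27 comparisons 1 animal moved the count over 1.5 times, and in 17 none did. Of the named genes none reversed. In the fits without 1 animal 130 of their calls were lost and 830 kept, and in the other fits 37 were lost and 248 kept.

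With 4 cKO animals and 51 weeks against 4, the cKO comparisons hold age with genotype. Genes of a few CPM, such as Mrpl55, Mrps11 and Mrpl36, rest on few counts per library. Mrpl23 may share reads with its pseudogene row, and whether Mrps11 and Mrpl46 share reads was not tested.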
